A study of Mus musculus with 12 samples.

Results

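The ubiquitin ligases and deubiquitinases were described here as a gene group in mouse oocyte RNA, compared between aged and young oocytes. Members were taken by name from the array annotation: probes listing exactly 1 gene symbol of the families Fbxl, Fbxo, Fbxw, Cul, Rbx, Asb, Rnf, Trim, Herc, Usp, Uchl, Otub and Otud, with Fbxo43 left out. This gave 55 genes from 77 probes, of 3089 named genes and 22575 probes in the table. No Uchl gene had such a probe, and all 55 members were tested. The names were not chosen by measured values, but they were chosen with earlier results of these data known.

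Aged oocyte RNA was hybridised directly against young oocyte RNA on 12 two-colour arrays, to compare oocyte transcripts between the 2 ages. In pair 1 aged RNA 1 met young RNA 1, in pair 2 aged RNA 2 met young RNA 5, and in pair 3 aged RNA 3 met young RNA 2. Each pair was hybridised on 4 arrays, made from 2 labellings in both dye orientations and counted as 1 replicate. The sources used here do not give strain, age, oocyte stage, number of oocytes or pooling of mice. Nor do they say that the RNAs are of separate animals. The p-values therefore rest on how these 3 pairs vary, a variation that can be technical. Values are given as log2 of aged over young, after each array's median was subtracted. A value of 1 is a doubling.

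The direction of these ratios was assumed from a common convention and is not settled. It assumes that the values are Cy5 over Cy3, which no source used here states, and under the opposite convention every sign below turns. The 3 pairs limit the precision. Spot intensities were not used here, so the level of a gene in either RNA is unknown. As RNA was compared in bulk, fewer cells of a type and less RNA per cell cannot be told apart.

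Ubiquitin is attached to proteins by a cascade in which a ligase chooses the substrate. Cullin ligases are built on a cullin scaffold that binds a RING protein such as Rbx1 at one end and an exchangeable substrate receptor, such as an F-box or Asb protein, at the other. Most Rnf and Trim proteins carry their own RING, Herc proteins pass ubiquitin through a HECT domain, and Usp and Otu proteases take ubiquitin off again. In oocytes, regulated protein destruction drives progress through meiosis and clears maternal proteins after fertilization.

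The promoter sequences of the members with the smallest p, Rbx1, Usp38 and Rnf145, are shown to place the genes and their start regions. They are the 250 bases before the annotated start, from RefSeq, 5′ to 3′ on the gene's strand. Capitals mark GC boxes (GGGCGG or its complement CCGCCC) and CCAAT boxes (CCAAT or its complement ATTGG), searched on both strands.
Rbx1 (GRCm38.p6, chr15:81466066-81466315, plus strand): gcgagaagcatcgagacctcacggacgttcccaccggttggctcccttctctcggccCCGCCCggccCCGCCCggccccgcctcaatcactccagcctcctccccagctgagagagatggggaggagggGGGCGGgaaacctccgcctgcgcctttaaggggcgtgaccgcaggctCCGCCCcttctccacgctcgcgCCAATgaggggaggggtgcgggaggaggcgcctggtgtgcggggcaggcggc
Usp38 (GRCm38.p6, chr8:81014907-81015156, minus strand): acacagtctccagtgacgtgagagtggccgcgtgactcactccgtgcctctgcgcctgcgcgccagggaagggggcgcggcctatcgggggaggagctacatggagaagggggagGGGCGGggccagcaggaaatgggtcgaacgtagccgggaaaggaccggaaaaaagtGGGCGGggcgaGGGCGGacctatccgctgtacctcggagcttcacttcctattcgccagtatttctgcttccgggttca
Rnf145 (GRCm38.p6, chr11:44518706-44518955, plus strand): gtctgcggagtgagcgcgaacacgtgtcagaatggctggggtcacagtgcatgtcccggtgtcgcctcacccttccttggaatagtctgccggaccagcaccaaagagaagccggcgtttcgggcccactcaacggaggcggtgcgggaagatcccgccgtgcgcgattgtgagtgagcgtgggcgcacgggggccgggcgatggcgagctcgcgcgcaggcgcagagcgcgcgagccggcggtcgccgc
Rbx1 had 4 GC boxes and 1 CCAAT box in this window, Usp38 had 3 GC boxes and 0 CCAAT boxes, and Rnf145 had 0 of either. Over the 46 members with a RefSeq window, 71.7% held a GC box and 32.6% a CCAAT box. Among 2454 other named genes the shares were 60.7% and 35.4%, and among all 27025 windows 32.9% and 34.5%. The median GC content was 62.8% in members and 60.8% in the other named genes. TAATTG or its complement CAATTA, searched as a core of the oocyte factor Nobox, lay in 6.52% of member windows, 4.81% of the other named genes' windows and 7.34% of all windows. Such matches describe letters in a window and show no binding.

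No ubiquitin ligase or deubiquitinase passed the test of aged against young oocytes. With limma, 0 of 55 members had an adjusted p under 0.05, against 0% of all 21398 rows. Rbx1 was the highest member and Usp38 the lowest. At an unadjusted p under 0.05 there were 5 members (9.09%), against 6.58% of all rows and 7.67% of named genes. Of these, 1 member was higher, where 2.79% of all rows and 72 of 3089 named genes were. The other 4 were lower, where 3.79% of all rows and 165 of 3089 named genes were. Those lower were Usp38, Rnf145, Fbxl5 and Cul2. Between families of the group no test was made, and counts and medians are given as descriptions.

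**Figure D1:**
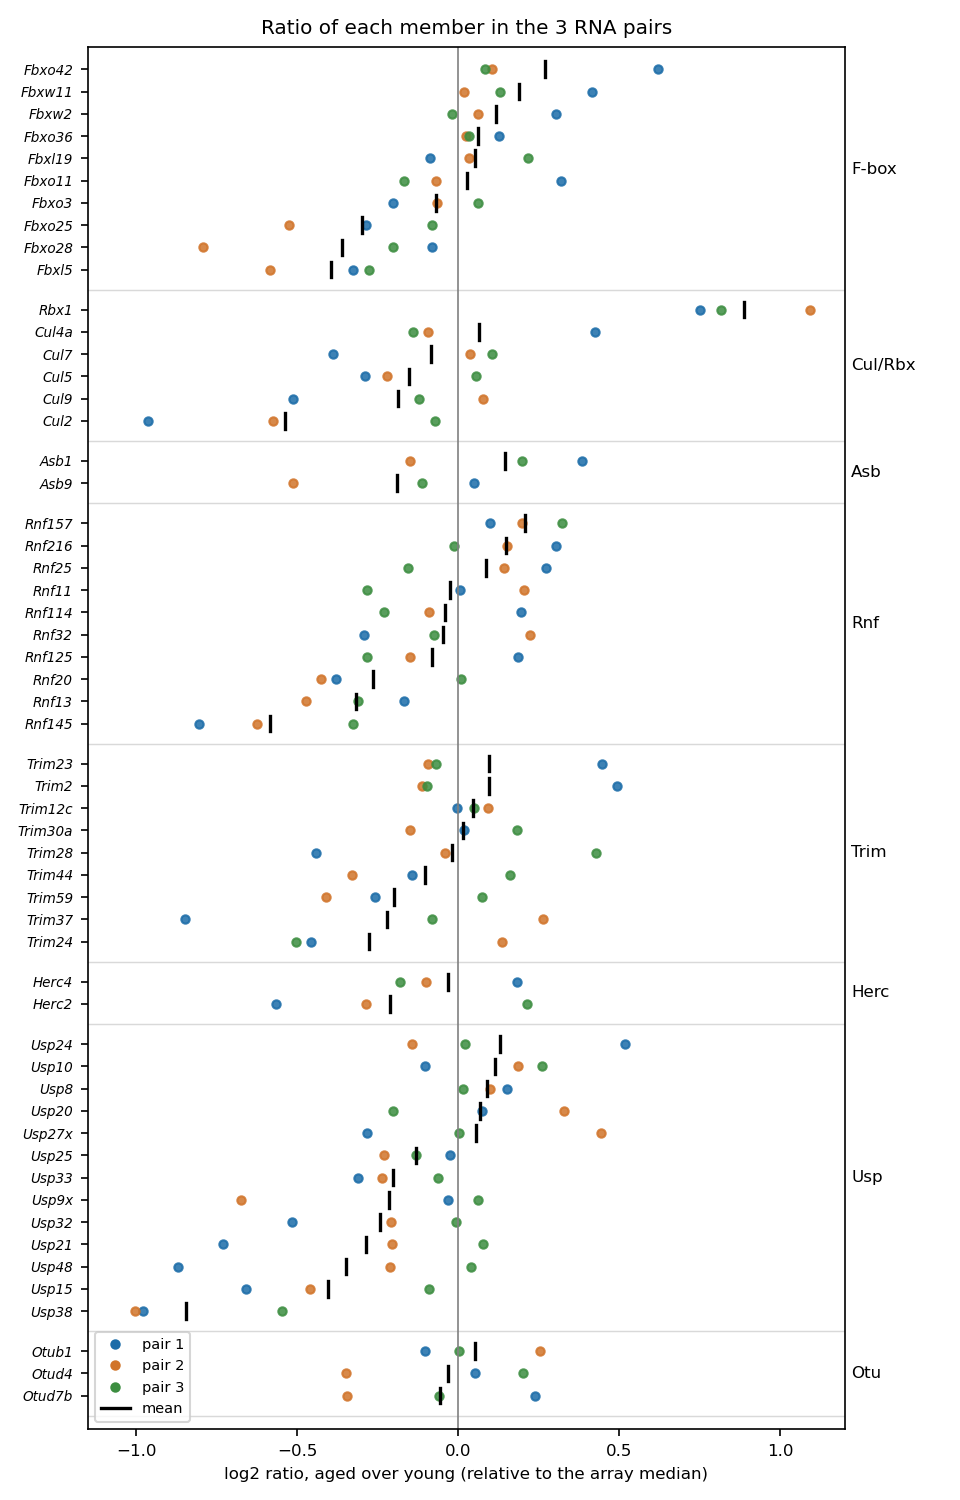
Log2 ratio of aged over young (x axis) for each of the 55 members (rows, by family), with a point for each of the 3 RNA pairs and a bar at their mean. Rbx1 lies to the right of 0 in every pair, and Usp38, Rnf145, Fbxl5 and Cul2 lie to the left in every pair.

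Rbx1, the RING subunit that brings the ubiquitin-loaded conjugating enzyme to cullin scaffolds, had ratios of 0.75, 1.09 and 0.82 in pairs 1, 2 and 3. Its mean of 0.89 ± 0.18 (SD, n = 3) corresponds to a fold of 1.85 in aged over young oocytes (limma, adjusted p = 0.486). It stood at place 7 of 3089 named genes by height of the ratio and at place 45 of 21398 rows by p. In pair 2 its 4 arrays lay between 0.97 and 1.17, and in pair 3 between 0.52 and 1.12, so all 8 arrays of these pairs were above 0. In pair 1 the arrays split by dye, with 2.65 and 1.02 where aged RNA carried Cy5 and -0.24 and -0.43 where it carried Cy3. The gene rests on 1 probe.

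Usp38, a ubiquitin-specific protease, had ratios of -0.98, -1.0 and -0.55 in pairs 1, 2 and 3, with a mean of -0.84 ± 0.26 (SD, n = 3), a fold of 0.557 (limma, adjusted p = 0.557). Its 8 arrays of pairs 2 and 3 ran from -1.21 to -0.40. The arrays of pair 1 again split by dye, at 0.46 and 0.22 where Cy5 labelled the aged RNA and at -1.91 and -2.69 where Cy3 did. Usp38 was also the member with the highest dye part, described below, and it too rests on 1 probe. Over all 12 arrays Rbx1 was above 0 on 10 and Usp38 below 0 on 10.

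**Figure D2:**
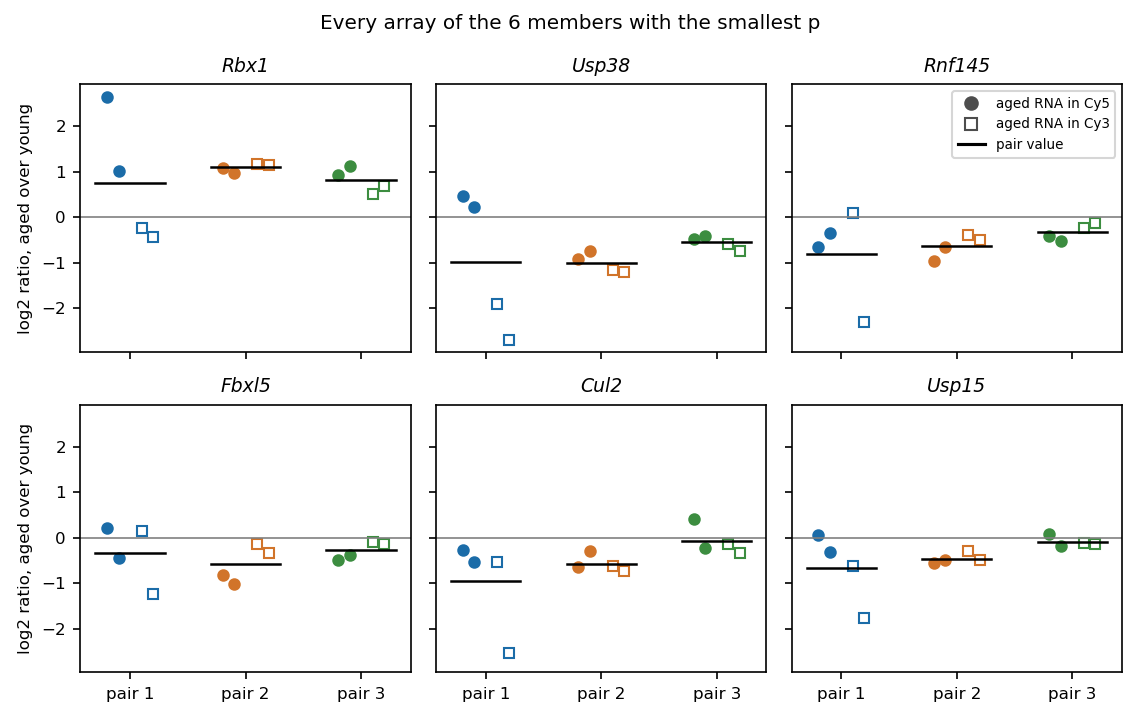
Log2 ratio of aged over young (y axis) on every array for the 6 members with the smallest p, by RNA pair (x axis), with filled circles for aged RNA in Cy5, open squares for aged RNA in Cy3 and a bar at the pair value. In pair 1 the arrays of Rbx1 and Usp38 separate by dye, while in pairs 2 and 3 every array of Rbx1 lies above 0 and every array of Usp38 below.

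Among the other members with a small p, a single array of pair 1 stood lowest. Rnf145, a RING ligase of the endoplasmic reticulum membrane linked to sterol control, had ratios of -0.80, -0.62 and -0.33 in the pairs, and a mean of -0.59 ± 0.24. Fbxl5, the F-box receptor that senses iron and targets iron regulatory protein, had -0.33, -0.58 and -0.28, and a mean of -0.40 ± 0.17. Cul2, the scaffold that carries the von Hippel-Lindau receptor, had -0.96, -0.57 and -0.07, and a mean of -0.54 ± 0.45 (SD, n = 3 each). Usp15, a protease of TGF-beta signalling, had -0.66, -0.46 and -0.09, and a mean of -0.40 ± 0.29 (SD, n = 3). Adjusted p in limma was 0.699 for Rnf145 and 0.716 for the other three.

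On the pair 1 array of labelling 2 with aged RNA in Cy3, the one with the widest spread over all rows (SD 1.23, against 0.391 to 0.88 on the other arrays), these genes read -2.31, -1.23, -2.52 and -1.77 in the order given. On the other arrays of pair 1 they ran from -0.66 to 0.22. Without that array, a setting added after seeing the data, the means were -0.38 for Rnf145, -0.28 for Fbxl5, -0.37 for Cul2 and -0.31 for Usp15, and 3 members in place of 5 had an unadjusted p under 0.05. Rbx1 and Usp38 then lay at 0.90 and -0.78.

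The cullins themselves lay mostly below 0 while Rbx1 lay above. Apart from Cul2, Cul9, a cullin-like protein that binds p53, had ratios of -0.51, 0.08 and -0.12 and a mean of -0.19 ± 0.30. Cul5, the scaffold for Asb and Socs receptors, had -0.29, -0.22 and 0.06, and a mean of -0.15 ± 0.18. Cul7, a scaffold that pairs with an Fbxw receptor, had -0.39, 0.04 and 0.10, and a mean of -0.08 ± 0.27 (SD, n = 3 each). Cul4a, the scaffold of DNA-damage ligases, was the only one with a mean above 0, at 0.06 ± 0.31 (SD, n = 3), and it turned sign without centring, with labelling 1 alone, with aged RNA in Cy3 only and without replicate 1. None of these 4 kept its sign over the pairs.

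F-box proteins, the substrate receptors of Cul1 ligases, had 6 of 10 members above 0 and a median of 0.04. Here 6 of 10 kept their sign over the pairs, 3 on each side. On the higher side was Fbxo42, a receptor that targets p53, with ratios of 0.62, 0.11 and 0.08 and a mean of 0.27 ± 0.30. Fbxw11, a receptor for beta-catenin whose 3 probes ran from -0.12 to 0.51, averaged 0.19 ± 0.21, and Fbxo36 averaged 0.06 ± 0.06 (SD, n = 3 each). On the lower side, besides Fbxl5, were Fbxo28, with ratios of -0.08, -0.79 and -0.20 and a mean of -0.36 ± 0.38, and Fbxo25, with -0.29, -0.52 and -0.08 and a mean of -0.30 ± 0.22 (SD, n = 3 each). Fbxw2, Fbxl19, Fbxo11 and Fbxo3 had means from -0.07 to 0.12 and mixed signs. No F-box member passed (limma, lowest adjusted p = 0.716).

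The Asb proteins, which join substrates to Cul5, split. Asb1 had ratios of 0.39, -0.15 and 0.20 and a mean of 0.15 ± 0.27, and Asb9, a receptor for creatine kinase, had 0.05, -0.51 and -0.11 and a mean of -0.19 ± 0.29 (SD, n = 3 each). Both measured members of the Herc family were below 0 on average with mixed signs, Herc2, a very large ligase of the DNA damage response, at -0.21 ± 0.39 and Herc4 at -0.03 ± 0.19 (SD, n = 3 each).

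Rnf proteins had 7 of 10 members below 0, with a median of -0.04. Rnf13, a RING ligase of endosomal membranes, had ratios of -0.17, -0.47 and -0.31 and a mean of -0.32 ± 0.15. Rnf20, which places ubiquitin on histone H2B, had -0.38, -0.43 and 0.01, and a mean of -0.26 ± 0.24. Rnf157 was the highest of the family, at 0.10, 0.20 and 0.32, with a mean of 0.21 ± 0.11 (SD, n = 3 each), and 11 of its 12 arrays were above 0. Rnf145, Rnf13 and Rnf157 were the family's 3 members with a constant sign. Rnf114 lay at -0.04 ± 0.22 (SD, n = 3) and turned sign under several settings. Rnf216, Rnf25, Rnf11, Rnf32 and Rnf125 had means from -0.08 to 0.15 and mixed signs.

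In the Trim family 0 of 9 members kept their sign over the pairs, and 5 lay below 0. Trim28, a co-repressor that protects imprints in early mouse embryos when supplied by the oocyte, had ratios of -0.44, -0.04 and 0.43 in pairs 1, 2 and 3, and a mean of -0.02 ± 0.43 (SD, n = 3). The 3 pairs thus disagreed on its direction, and its 4 arrays of pair 1 ranged from -1.97 to 1.16. Trim37, a ligase of centrosomes and peroxisomes, had -0.85, 0.26 and -0.08, and a mean of -0.22 ± 0.57, the widest spread of any member. Trim24, a transcriptional co-regulator, had -0.46, 0.14 and -0.50, and a mean of -0.28 ± 0.36. Trim23 was the highest of the family at 0.10 ± 0.31 (SD, n = 3 each). Trim2, Trim12c, Trim30a, Trim44 and Trim59 had means from -0.20 to 0.09.

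Members were sorted into deubiquitinases and ligases by family name alone. Deubiquitinases had 10 of 16 members below 0 and a median of -0.09. Ligases and ligase subunits had 23 of 39 below 0 and a median of -0.04. Within the Usp proteases 8 of 13 were below 0, with a median of -0.20, and 5 of these were below 0 in every pair. They were Usp38, Usp15, Usp32, Usp33 and Usp25. Usp32 had ratios of -0.52, -0.21 and -0.01 and a mean of -0.24 ± 0.26, and Usp33, a protease of centrosome proteins, had -0.31, -0.24 and -0.06, and a mean of -0.20 ± 0.13 (SD, n = 3 each). Usp25 averaged -0.13 ± 0.10 (SD, n = 3). Neither of its 2 probes was below 0 in every pair, at 0.39, -0.37 and -0.33 and at -0.44, -0.09 and 0.07. Of the 2 probes of Usp32, 1 had mixed signs too, at -0.54, 0.08 and 0.03, and so had 1 of the 2 of Usp33, at -0.01, 0.05 and 0.03.

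Other Usp members differed between pairs. Usp48 had -0.87, -0.21 and 0.04, and a mean of -0.35 ± 0.47. Usp21 had -0.73, -0.21 and 0.08, and a mean of -0.29 ± 0.41. Usp9x, an X-linked protease needed in early mouse development, had -0.03, -0.67 and 0.06, and a mean of -0.21 ± 0.40 (SD, n = 3 each). Usp8, which acts on endosomes, was the only Usp above 0 in every pair, at 0.09 ± 0.07 (SD, n = 3). Usp24 had the highest mean, 0.13 ± 0.34 (SD, n = 3), from ratios of 0.52, -0.14 and 0.02. Usp10, Usp20 and Usp27x had means from 0.05 to 0.11. The Otu proteases were close to 0, with Otub1 at 0.05 ± 0.18, Otud4 at -0.03 ± 0.28 and Otud7b at -0.06 ± 0.29 (SD, n = 3 each).

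**Figure D3:**
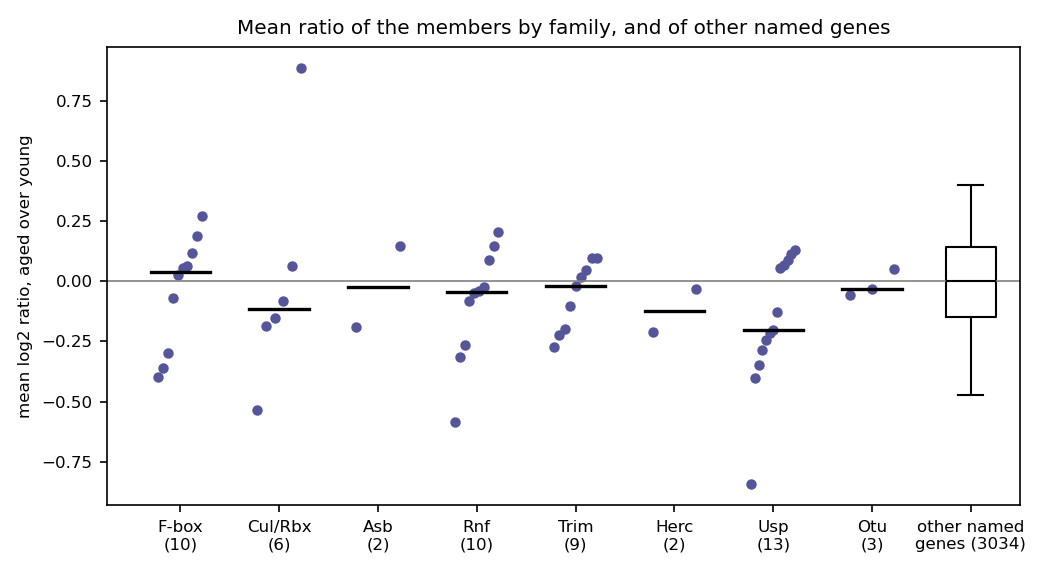
Mean log2 ratio of aged over young (y axis) of each member by family, with a bar at the family median and the number of genes in brackets, and for 3034 other named genes a box of the quartiles with whiskers from the 5th to the 95th percentile. Most members lie within the whiskers, with Rbx1 above them and Usp38, Rnf145 and Cul2 below.

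As a group, 33 of 55 members (60%) had a mean below 0, with a median of -0.05, against 49.7% and a median of 0.0020 in the 3034 other named genes. That count depends on the assumed direction and the centring: it was 25 of 55 if the values were already aged over young when deposited, and 47 of 55 without centring. The other genes moved as well. With values already aged over young, the median was 0.0157 in members and 0.0927 in all named genes, with the members again lower. The median over members was -0.08, -0.10 and -0.01 in pairs 1, 2 and 3, against -0.03, -0.01 and 0.02 in the other named genes. One sign in the 3 pairs was seen in 17 members (30.9%), against 29.8% of all rows and 32.7% of named genes. Of these, 6 were above 0, where 17.1% of all rows and 505 of 3089 named genes were. The other 11 were below, where 12.7% of all rows and 506 of 3089 named genes were. The size of the ratios was mostly small: 35 members lay within 0.2 of 0 and 4 beyond 0.5. Without centring the median of all named genes moved to -0.11 and that of the members to -0.16, so the members' place is given relative to the array median.

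The pairs differed in how far the members lay from 0. The ratio farthest from 0 was that of pair 1 in 29 members, of pair 2 in 18 and of pair 3 in 8, and pair 1 was also the farthest in 53.0% of the other named genes. Across the 55 members the pair ratios correlated at r = 0.42 between pairs 1 and 2, 0.26 between pairs 1 and 3, and 0.45 between pairs 2 and 3, against 0.18, 0.06 and 0.15 across all rows. All rows are mostly probes without a single gene symbol, and r over the other named genes was not computed. Rbx1 and Usp38 each lay far from 0 on the same side in every pair. The r without these genes was not computed, so their part in the members' r was not tested. These are descriptions across genes that share arrays and dyes, and genes are not independent replicates. In the limma test of differences among pairs, on 12 arrays with the dye orientation in the model, 0 of 55 members passed, against 5.74% of all rows. The lowest adjusted p were those of Trim37 at 0.069, Usp9x at 0.187 and Trim24 at 0.20 (limma), and 2 of these had probes that disagreed.

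If the values are Cy5 over Cy3, as assumed, part of a member's value followed the dye and not the RNA. In the limma fit of 12 arrays with the pair in the model, 9 of 55 members (16.4%) had a dye effect at an adjusted p under 0.05, against 22.9% of all rows. Usp38 (0.54), Herc2 (0.50), Cul4a (0.38) and Cul7 (0.37) were brighter in Cy5, in log2 of Cy5 over Cy3, and Usp24 (-0.62), Rnf125 (-0.50), Asb1 (-0.49), Fbxo36 (-0.47) and Rnf216 (-0.41) in Cy3. For Usp24, Asb1 and Fbxo36, all 6 arrays with aged RNA in Cy3 read above 0. With aged RNA in Cy5 their means were -0.49, -0.34 and -0.41, so for these the sign of the ratio depended on the dye that carried aged RNA. The mean also turned sign for Herc2 (0.29 with aged RNA in Cy5 and -0.71 in Cy3), Cul7 (0.28 and -0.45) and Cul4a (0.44 and -0.32). It did so too for Rnf125 (-0.58 and 0.415) and Rnf216 (-0.26 and 0.55). For Usp38 the sign of the mean over the pairs did not depend on the dye, although the sign within pair 1 did. Usp38 lay at -0.31 over the arrays where Cy5 labelled the aged RNA and at -1.38 over the others. Rbx1, whose dye effect did not pass (0.41, limma adjusted p = 0.116), lay at 1.30 and 0.48 in these settings.

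**Figure D4:**
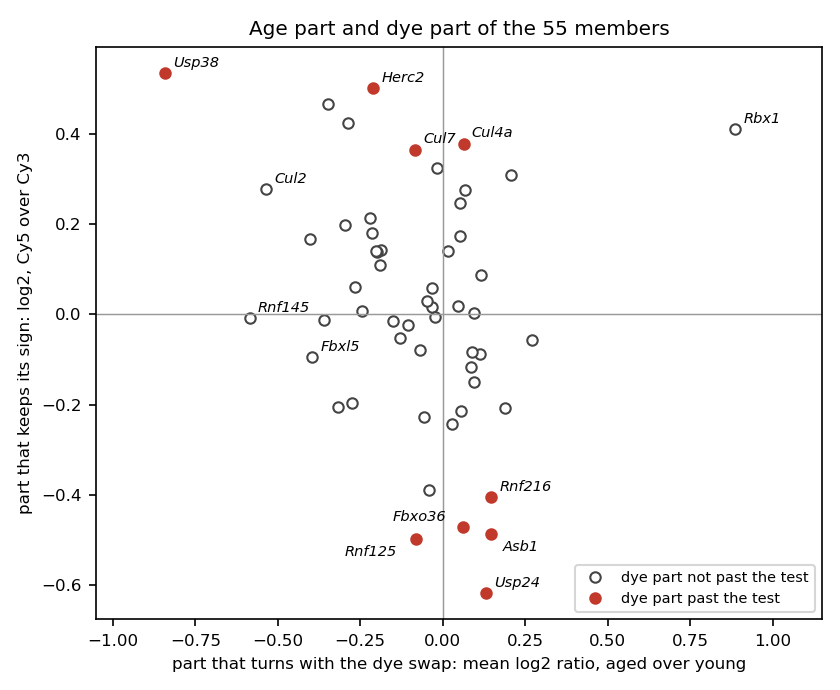
For each of the 55 members, the part of the value that turned with the dye swap (x axis, mean log2 ratio of aged over young) and the part that kept its sign (y axis, log2 of Cy5 over Cy3), with filled points where the dye part passed limma at an adjusted p under 0.05. Usp38 is far from 0 on both axes, while Usp24, Asb1, Fbxo36, Rnf125 and Rnf216 lie low on the dye axis and near 0 on the age axis.

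Arrays of one pair and one dye orientation agreed across the members at a mean r = 0.58, while arrays of one pair with opposite orientation had a mean r of -0.0005. Arrays of different pairs with the same orientation correlated at 0.35, and with opposite orientation at -0.02. These 55 points share the labelling and the array, and no p is given. If the values had already been turned to aged over young before deposit, the dye part would be the age ratio, and Usp38 would lie at 0.54, Cul2 at 0.28 and Rbx1 at 0.41. Under that reading too, 0 members passed (limma). Over all rows, arrays of one pair had a mean r of 0.49 with the same orientation and -0.03 with opposite orientation. Between different pairs these values were 0.24 and -0.14. With the values read as already turned, 5566 of 21398 rows had an unadjusted p under 0.05 in limma, against 1408 in the main fit. Which reading holds was not tested.

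Probes of one gene did not always tell the same story. Of 18 members with more than 1 probe, 9 (50%) had probes of 1 sign, against 48.9% of 867 such named genes. Both probes of Usp15, at -0.46 and -0.34, of Rnf20, at -0.34 and -0.19, and of Fbxo42, at 0.32 and 0.22, had 1 sign, and the 3 probes of Usp48 ran from -0.50 to -0.27. Trim24 had 1 probe at -1.01 and others at 0.01 and 0.17, so that its mean rested on the first. Those of Trim37 lay at -0.57 and 0.13, of Rnf32 at -0.49 and 0.39, and of Usp33 at -0.43 and 0.02. The other 37 members rest on 1 probe each, among them Rbx1, Usp38, Rnf145, Fbxl5 and Cul2.

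**Figure D5:**
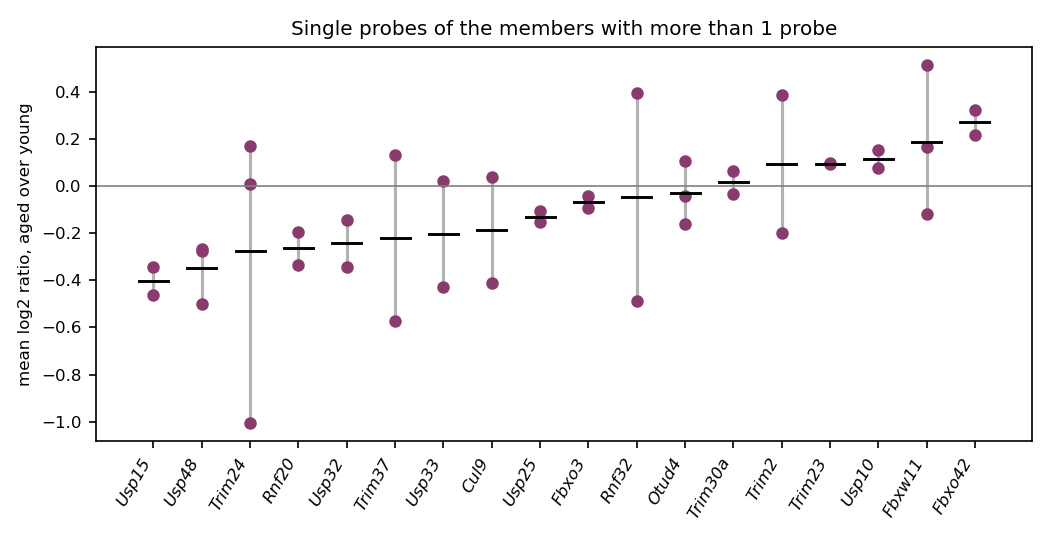
Mean log2 ratio of aged over young (y axis) of each probe (points) of the 18 members with more than 1 probe, with a bar at the gene's mean. The probes of Trim24 and Rnf32 are the farthest apart, and those of Trim23, Fbxo3, Usp25 and Usp10 lie close together in this mean over the pairs.

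A further 39 probes list one of 22 members together with other genes and were left out of the means. For Fbxo42 these lay at 0.19 and 0.48 and for Fbxl5 at -0.15, on the side of the gene's mean. For Fbxo28 they lay at 0.06 and 0.21, and for Fbxw2 at -0.57, on the other side. In all, 18 of the 39 had the sign of the member's mean. No such probe listed Rbx1, Usp38, Rnf145 or Cul2.

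Other genes of the pathway were described from lists chosen with earlier results known, of which only the genes with a probe of their own were measured. Of these 50, 0 passed in limma, and 4 had an unadjusted p under 0.05, all of them lower. Lower at that threshold were 3.79% of all rows and 165 of 3089 named genes. In either direction the shares were 6.58% of all rows and 7.67% of named genes. Uba3, the catalytic subunit of the enzyme that activates Nedd8, the modifier that switches cullins on, had ratios of -1.06, -0.67 and -0.35 and a mean of -0.70 ± 0.36 (SD, n = 3), while Uba6 lay at -0.10 ± 0.17 (SD, n = 3). Subunits of the COP9 signalosome, which takes Nedd8 off cullins, lay on both sides of 0. Cops8 had ratios of -0.72, -0.70 and -0.13 and a mean of -0.51 ± 0.33, and Cops3 had -0.66, -0.10 and -0.48 and a mean of -0.41 ± 0.29. Cops4, with mixed signs, averaged -0.33 ± 0.35, Cops7b, also mixed, 0.13 ± 0.32, and Gps1, above 0 in every pair, 0.28 ± 0.27 (SD, n = 3 each). In the whole list of cullin adaptors and regulators 12 of 16 were above 0, among them the receptor Spop at 0.26 ± 0.19 (SD, n = 3).

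Of the anaphase-promoting complex, the ligase that ends M phase, Cdc16 lay at -0.54 ± 0.30 and its activator Cdc20 at -0.03 ± 0.21 (SD, n = 3 each). The other HECT and RBR ligases had 3 of 7 above 0, with Nedd4 at 0.09 ± 0.07, Trip12 at -0.03 ± 0.05 and Itch at 0.10 ± 1.09, the last from 1.24, -0.92 and -0.04. Other RING and U-box ligases had 11 of 15 above 0, with Shprh at -0.39 ± 0.37, Rbbp6 at 0.22 ± 0.13 and Marchf7 at -0.49 ± 0.69. Other deubiquitinases had 3 of 8 above 0, with Psmd14, of the proteasome lid, at 0.29 ± 0.35, Mysm1 at -0.15 ± 0.07 and Mindy2 at -0.33 ± 0.73 (SD, n = 3 each).

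Ratios cannot show whether a marker is present, so the identity of the cells was not checked. Of 25 oocyte markers listed 5 were measured, and 2 lay above 0, with Dppa3 at 0.62 ± 0.20, Kit at -0.70 ± 0.36 and Zp2, a zona protein, at -1.18 ± 1.55 from -1.69, 0.56 and -2.41. Of 22 cumulus and granulosa markers 4 were measured, and 1 lay above 0, with Inhbb at -0.15 ± 0.14, Cyp11a1 at -0.09 ± 0.07 and Gja1 at 0.09 ± 0.39. Of 20 blood and immune markers 5 were measured, and 3 lay above 0. These were H2-Aa at 0.36 ± 0.12, Csf1r at 0.17 ± 0.10 and H2-Ab1 at 0.18 ± 0.35. Below 0 were C1qb at -0.06 ± 0.25 and Ptprc at -0.02 ± 0.35. Of 16 stromal and epithelial markers Pecam1 was measured, at -0.15 ± 0.15 (SD, n = 3 each). No marker passed in limma, and their part in the members' ratios was not tested.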

How the data were processed

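The deposited values were taken as log10 ratios of both dyes of an array, inferred from their range; direction, scaling, centring, scanner software and dye normalization by the authors are not stated in any source read here. In all, 1215 values exactly at -2 or 2 and 513 at exactly 0 were treated as missing, 0.638% of values; 1 value of each kind concerned the members.

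Values were converted to log2, centred on each array's median and given the sign of aged over young from the labelled dyes, assuming Cy5 over Cy3. Arrays of a pair were averaged within each dye orientation, then over both, and probes with the same single symbol were averaged. The 3 pair values were tested against 0 with limma 3.58.1 (two-sided; lmFit and eBayes) under R 4.3.3 and the package data.table at version 1.17.8, over 21398 rows, with Benjamini-Hochberg adjustment at 0.05. On the 12 arrays, limma also fitted the dye effect and the differences among pairs. The fits were tested on simulated data.

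All 55 members had a RefSeq ID, and 0 symbols changed. Members and lists were chosen with earlier results of these data known. Named members were the 15 of smallest p, the extremes of each family, a set of fixed names, and the 3 of smallest p for pair and for dye; Usp21, Fbxw11, Rnf216, Rnf125 and others outside this rule were named after their values were seen. Alternatives covered centring, scaling, labellings, dyes, replicates, variances, probes and filters; leaving out the widest array was added after the data were seen.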

Additional observations from a re-analysis of the deposited data

How the results depend on the processing

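The test is itself paired, as each array sets an aged against a young RNA. The count of members past the threshold was 0 under all 18 listed alternatives and the added one. Among the rows of smaller technical spread only 40 of the 55 members were tested. Rbx1, Usp38, Rnf145 and Cul2 were not among these, so that setting did not check them. Over all rows the count was 0, but 13 without centring, 2 among the rows of smaller technical spread, 213 with 12 arrays and the pair as a random block, and 0 to 42 when a replicate was left out, the 42 without replicate 1. The members' median of -0.05 moved to -0.16 without centring, to -0.10 with labelling 1 only and with aged RNA in Cy3 only, and to 0.016 if the values already were aged over young when deposited. In these settings the median of all named genes was -0.11, 0.0059, -0.069 and 0.093, in that order. Members of 1 sign numbered 32 if the values already were aged over young, and 25 to 32 with a replicate left out, where 2 pairs need to match in place of 3. Of 55 members, 15 kept their sign in all 13 settings that alter ratios and keep the assumed direction, among them Rbx1 (0.48 to 1.30), Usp38 (-1.38 to -0.31), Rnf145 (-0.74 to -0.38), Cul2, Fbxl5 and Usp15. The block fit estimated a correlation of only 0.0784 between arrays of a pair. It thus counted the 12 technical arrays of 3 pairs nearly as independent, and its p-values and its 213 rows can overstate the evidence. For Rbx1 and Usp38 it gave adjusted p = 0.0568 and 0.0695 (limma). Over the alternatives that tested them, adjusted p in limma ranged from 0.0568 to 0.841 for Rbx1 and from 0.0695 to 0.857 for Usp38.

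Sign changes of the members that the naming rule chose follow as log2 ratios, and the cause was not tested. Read as already aged over young they were Asb1 -0.49, Asb9 0.11, Cul2 0.28, Cul7 0.36, Fbxo25 0.20, Fbxo36 -0.47, Fbxo42 -0.057, Herc2 0.50, Herc4 0.016, Rnf20 0.0603, Trim28 0.33, Trim37 0.21, Usp15 0.17, Usp24 -0.62, Usp32 0.0086, Usp33 0.14, Usp38 0.54, Usp48 0.47 and Usp9x 0.18. With aged RNA in Cy5 only they were Asb1 -0.34, Cul7 0.28, Fbxo36 -0.41, Herc2 0.29, Trim28 0.31, Usp24 -0.49 and Usp48 0.12, and in Cy3 only Cul4a -0.32, Otub1 -0.12, Otud7b 0.17, Rnf114 0.35 and Rnf157 -0.10. With labelling 1 only they were Cul4a -0.0046, Otub1 -0.039, Rnf114 0.13 and Trim28 0.12, and with labelling 2 only Otud7b 0.031. No centring gave Cul4a -0.051, Fbxo36 -0.053, Otub1 -0.063 and Trim23 -0.019, scaling to one spread Rnf114 0.0077 and Trim28 0.19, several-gene probes Cul5 0.051, Otud7b 0.18, Rnf114 0.023 and Trim28 0.13, 1 probe per gene Trim24 0.17, Trim37 0.13 and Usp33 0.022, and leaving out the widest array Rnf114 0.025 and Trim28 0.041. With a replicate left out the values ranged from -0.12 to 0.17 for Cul4a, -0.18 to 0.07 for Cul7, -0.14 to 0.041 for Herc4, -0.049 to 0.13 for Otub1, -0.20 to 0.0895 for Otud7b, -0.16 to 0.052 for Rnf114, -0.081 to 0.19 for Trim23, -0.24 to 0.19 for Trim28, -0.46 to 0.091 for Trim37, -0.062 to 0.27 for Usp24 and -0.35 to 0.016 for Usp9x. Of the 23 members outside the rule, Trim59 and Usp25 alone kept their sign in the 13 settings, Usp25 with a value as near to 0 as -0.0008. Among the others, values reached -0.12 for Fbxw11 and 0.039 for Cul9 with 1 probe per gene, 0.14 for Usp21 and -0.26 for Rnf216 with aged RNA in Cy5 only, 0.415 for Rnf125 with it in Cy3 only, -0.14 for Usp8 with several-gene probes and 0.13 for Otud4 without replicate 2. Signal over background was not used here.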
